A study of Mus musculus with 48 samples.

Results

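The transcriptomes of B16-D5 melanoma tumors taken 1 day after control IgG were compared, across all genes, with those of tumors from untreated mice. The comparison used 6 of the 48 tumors sequenced, 3 per group, and the members were chosen by the group, day and replicate number in the sample titles: IgG tumors 2, 4 and 6, and untreated tumors 1, 3 and 6. The larger study followed anti-PD-1 treatment of the same tumor model over time in WT mice. In a separate experiment it compared WT mice with mice lacking iNOS. All 6 tumors grew in WT C57BL/6J mice, which arrived at 4 weeks of age and were housed for 2 weeks. B16-D5 cells were placed under the skin of the flank on day -8, and treatment began on day 0. Mice of the IgG group received 250 µg of the antibody in 200 µL of PBS on day 0, and their next dose was due on day 3, after these tumors had been taken. The paper describes the control mice as given no treatment and mentions no injection of PBS for them. The antibody therefore cannot be told apart here from the handling and the injection. Each library was made from total RNA of fresh, unsorted tumor tissue from 1 tumor, and B16-D5 is a subclone of a single cell line. Groups follow the titles because other label fields disagree with them: the treatment field matches the title in 3 of the 6 tumors and the time field in 0 of the 6. The leading code in the title of IgG tumor 4 also stands in the title of an untreated tumor taken at the start, in which the IFN-γ list described below had a mean log2 CPM of 4.17.

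IgG of irrelevant specificity serves as the control for a therapeutic antibody because it shares the constant region, which Fc receptors on macrophages, neutrophils, dendritic cells and NK cells can bind, but has no matching target in the host. Activating Fc receptors signal through the common γ chain and Syk, and the inhibitory receptor FcγRIIB opposes them. Interferon-γ, made by T and NK cells, acts on tumor and host cells, where it raises antigen presentation and PD-L1.

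Defining genes of the melanocyte lineage were present in every tumor. Dct, which encodes the melanin enzyme dopachrome tautomerase, stood at 4406, 5687 and 4745 CPM (counts scaled to a common library size, with TMM factors) in untreated tumors 1, 3 and 6 and at 4005, 4253 and 4063 CPM in IgG tumors 2, 4 and 6. Depth was 34713552 to 41799563 counts on genes per tumor. IgG tumor 6 stood apart by its muscle and keratinocyte genes and IgG tumor 4 by its interferon genes, so the list medians and log2 fold changes that rest on them are also given without them.

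No gene differed between IgG and untreated tumors at an adjusted p under 0.05. edgeR's quasi-likelihood test called 0 of 26848 genes tested, or 0%, and the smallest Benjamini-Hochberg adjusted p from edgeR was 0.859. These p-values weigh the group difference against the spread between tumors of a group, estimated over all 30 WT tumors of the time course. An unadjusted p under 0.05 was reached by 1077 genes that were higher in IgG tumors (4.01% of the genes tested) and by 380 that were lower (1.42%). The median log2 fold change over all genes tested, IgG over untreated, was 0.04. Of the 26848 genes, 14215 were higher in IgG tumors and 12518 lower, and the list counts below stand beside these. The same counts tested with limma voom gave 0 genes, and DESeq2 gave 25, of which IgG tumor 6 carried 18 at more than 4 times the next IgG tumor. A single tumor carried much of the higher side. Among the 1077 higher genes, IgG tumor 6 had the highest level of the 3 IgG tumors in 605, and in 276 of these it was more than 4 times the next IgG tumor. IgG tumor 4 was highest in 340, with 61 past the same 4-fold mark, and IgG tumor 2 in 132, with 20. Only 538 of the 1077 had all 3 IgG tumors above all 3 untreated tumors, whereas 278 of the 380 lower genes had all 3 IgG tumors below. Over all genes tested, 6.26% had the IgG tumors entirely above the untreated tumors and 6.36% entirely below.

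The count of called genes depended on the filter on low counts. With no filter edgeR called 206 genes, of which 205 were higher, and 141 of the 206 were carried by IgG tumor 6 at more than 4 times the next IgG tumor. In that fit the prior degrees of freedom, which set how far each gene's variance is drawn to the trend, were 60.1 against 5.51 with the filter. Leaving out IgG tumor 6 or IgG tumor 4 as well, a check added after the data were seen, gave 304 and 769 genes with infinite prior degrees of freedom, and 57 of the 304 were carried by IgG tumor 4 and 315 of the 769 by IgG tumor 6. In the filtered fit, leaving out any one of the 6 tumors left the count at 0.

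**Figure D1:**
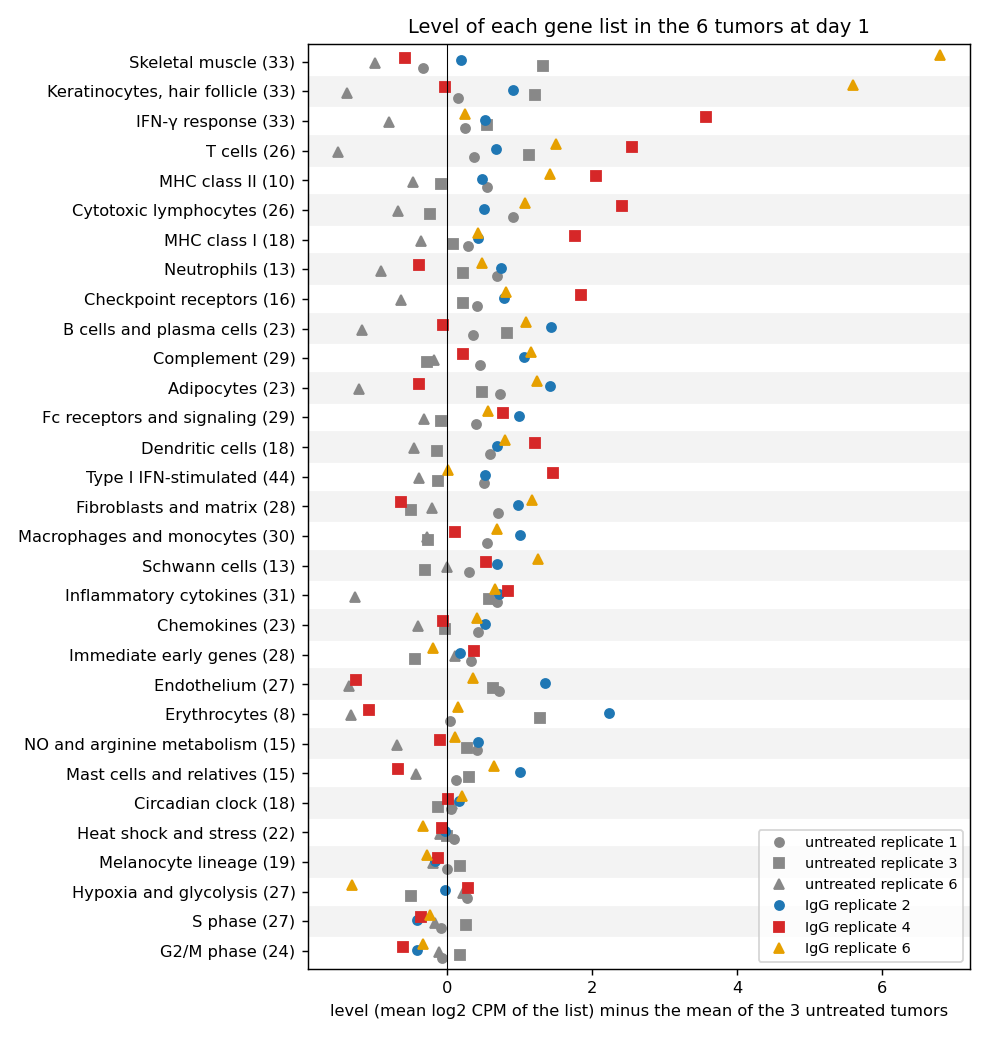
Level of 31 gene lists in the 6 tumors, as the mean log2 CPM of the members tested (number in brackets) minus the mean of the 3 untreated tumors, ordered by the list's median log2 fold change; gray marks are untreated tumors and colored marks IgG tumors. The muscle and keratinocyte lists are set by IgG tumor 6 and the IFN-γ list by IgG tumor 4. All 3 IgG tumors lie above all untreated tumors for the Fc receptor, MHC class I, dendritic cell, Schwann cell and checkpoint receptor lists. They lie below them for the S phase and G2/M lists. On the MHC class I list the mean log2 CPM is 6.63, 7.96 and 6.63 in IgG tumors 2, 4 and 6, against at most 6.49 untreated. On the checkpoint list it is 2.02, 3.09 and 2.05, against at most 1.66.

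The genes with the smallest p-values held some that differed evenly over the IgG tumors and others carried by 1 tumor. Lacc1, at chr14:77024200-77036904 in GRCm38, encodes a purine-metabolizing enzyme of macrophages. Its level was 20.7, 15.4 and 16.4 CPM in untreated tumors and 26, 49.9 and 29.4 CPM in IgG tumors. Each IgG tumor was above every untreated tumor, with a log2 fold change of 1.0 ± 0.25 (SE). Samhd1, which encodes a dNTP triphosphohydrolase that restricts retroviruses, measured 191, 156 and 183 CPM against 265, 690 and 285 CPM, and again no tumor crossed over (log2 fold change 1.22 ± 0.35). With IgG tumor 4 left out the log2 fold changes were 0.66 for Lacc1 and 0.64 for Samhd1. Cd300a encodes an inhibitory receptor of myeloid cells and was at 4.02, 2.79 and 4.01 CPM in untreated tumors and 10.7, 6.90 and 11.8 CPM in IgG tumors. Cd300c2, from the same receptor family, was at 1.91, 1.76 and 0.996 CPM against 4.37, 4.70 and 5.40 CPM. For both CD300 genes the lowest IgG tumor was well above the highest untreated tumor, and the log2 fold changes were 1.44 ± 0.41 and 1.63 ± 0.47. Plxna3, a semaphorin co-receptor gene, had 3.26, 2.7 and 2.91 CPM without treatment and 6.40, 6.13 and 9.71 CPM after IgG (log2 fold change 1.32 ± 0.38). The remaining genes of this set were largely muscle genes: Txlnb, Srl, Mylk2 and Tmem38a stood at 65.0, 66.4, 54.1 and 54.6 CPM in IgG tumor 6, while no other tumor of the 6 exceeded 8.59 CPM for any of them.

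Several of the 15 lower genes with the smallest p-values belong to the mitotic apparatus, and others do not. Some of the 15 are not named here, and those also had all IgG tumors below all untreated tumors. Cep126, a centrosome gene, measured 10.8, 13.3 and 10.9 CPM in untreated tumors and 5.97, 7.39 and 6.24 CPM in IgG tumors (log2 fold change -0.84 ± 0.20). Tacc3, whose product stabilizes the microtubules of the spindle, was at 53.8, 59.9 and 49.0 CPM against 33.3, 33.6 and 35.8 CPM (-0.66 ± 0.19). The 3 IgG tumors lay close to one another and below all untreated tumors. Anln, which encodes the cytokinesis protein anillin, gave 142, 157 and 170 CPM against 121, 95.1 and 107 CPM (-0.54 ± 0.17), and Birc5, which encodes the chromosomal passenger protein survivin, 47.6, 60.0 and 61.6 CPM against 39.1, 33.7 and 41.8 CPM (-0.56 ± 0.19). Ube2t, Nup35, Sox11 and Kifc3 also had all IgG tumors below all untreated tumors, with log2 fold changes of -0.72, -0.82, -0.51 and -0.49. The growth hormone gene Gh had the second smallest p of the lower genes at a low level, 2.48, 1.54 and 2.20 CPM against 0.463, 0.557 and 0.334 CPM (-2.19 ± 0.54). The processed pseudogenes Rps15-ps2 and Rps13-ps2 were in the same set, but their values are uncertain because reads may be shared with near-identical ribosomal protein sequences, and the higher untreated values came from 1 and 2 tumors.

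IFN-γ response genes stood higher in IgG than in untreated tumors in 33 of 33 members tested, with a median log2 fold change of 1.90 against 0.04 over all genes, and IgG tumor 4 carried this. Of the 33 members, 26 were higher at an unadjusted p under 0.05, against 4.01% of all genes. For 6 of the 33 all IgG tumors were above all untreated tumors, against 6.26% of all genes. The count of 26 came to 9 without untreated tumor 6, to 13 without untreated tumor 1, to 15 with the replicate number as a block and to 2 in limma voom with quality weights, where the median was 1.04. The list's mean log2 CPM was 3.99, 4.29 and 2.93 in untreated tumors 1, 3 and 6 and 4.26, 7.31 and 3.99 in IgG tumors 2, 4 and 6. IgG tumor 4 thus had the highest level of all 30 WT tumors in the time course, those given anti-PD-1 included, while IgG tumors 2 and 6 lay within the range of the untreated tumors. Without IgG tumor 4 the median was 0.22, with 21 of 33 higher and 0 at an unadjusted p under 0.05.

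Single genes showed the same arrangement. Irf1, which encodes an interferon-induced transcription factor, was at 43.5, 41.4 and 28.6 CPM in untreated tumors and at 39.1, 374 and 33.5 CPM in IgG tumors. For this gene 2 of the 3 IgG tumors were inside the untreated range, and the log2 fold change of 1.98 ± 0.82 came down to -0.061 without IgG tumor 4. Cd274, which encodes PD-L1, gave 24.1, 18.2 and 13.7 CPM against 22.9, 211 and 16 CPM (2.16 ± 0.78). Iigp1, an immunity-related GTPase gene, gave 74.1, 84.1 and 22 CPM against 80.2, 1118 and 73.3 CPM (2.82 ± 1.15), and the chemokine gene Cxcl10 gave 125, 201 and 77.7 CPM against 71.6, 623 and 168 CPM (1.10 ± 0.72). IgG tumor 4 was the outlying library each time, and with it left out Cd274 stood at a log2 fold change of 0.058, Iigp1 at 0.35 and Cxcl10 at -0.17. Ifng, the cytokine gene, was at 0.323, 0 and 0 CPM in untreated tumors and at 0.0514, 6.95 and 0.180 CPM in IgG tumors, where 3 counts correspond to 0.0727 to 0.0853 CPM. Gbp8, a guanylate-binding protein gene, had the smallest p of the list and was higher in all 3 IgG tumors: 5.20, 2.5 and 2.44 CPM against 12.4, 59.9 and 9.79 CPM (3.02 ± 0.89). Without IgG tumor 4 the edgeR fit gave Gbp8 a log2 fold change of 1.71.

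Promoters of the list are shown because these genes were high together in IgG tumor 4. The stretches are the 250 bases before the RefSeq start in GRCm38.p6 on the gene's strand, and capitals mark the interferon-γ-activated sequence (GAS) searched as TTCNNNGAA, which reads the same on both strands. Serpina3g (chr12:104235897-104236146, plus strand) and Irf8 (chr8:120736108-120736357, plus strand) were chosen after their values were seen, for holding the letters.
Serpina3g: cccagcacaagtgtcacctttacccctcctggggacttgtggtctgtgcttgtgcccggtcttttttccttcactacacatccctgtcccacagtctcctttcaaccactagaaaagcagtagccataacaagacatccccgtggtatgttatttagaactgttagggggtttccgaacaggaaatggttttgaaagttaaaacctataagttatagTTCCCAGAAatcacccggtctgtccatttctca
Irf8: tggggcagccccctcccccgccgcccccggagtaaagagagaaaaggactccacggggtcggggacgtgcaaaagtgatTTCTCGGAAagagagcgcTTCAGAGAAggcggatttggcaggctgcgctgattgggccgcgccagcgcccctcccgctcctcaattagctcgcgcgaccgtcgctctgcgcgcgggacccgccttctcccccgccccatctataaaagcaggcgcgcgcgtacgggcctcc
Among the 26 promoters found for 21 of the list's genes, counted from 250 bases before to 50 bases after the start, 38.5% held the GAS letters, against 8.3% of 32851 promoters of all genes. The related ISRE-like letters GAAANNGAA, searched on both strands and able to share bases with GAS, were in 50% of the list's promoters and in 8.56% of all. A match is a description of the letters and not evidence of a bound site. Serpina3g, a serine protease inhibitor gene, was at 4.20, 3.07 and 0.813 CPM in untreated tumors and 4.42, 62.6 and 6.89 CPM in IgG tumors. Irf8, which encodes a myeloid transcription factor, was at 20.8, 18.5 and 16 CPM against 25.4, 163 and 28.7 CPM. In both, IgG tumor 4 was far above the other tumors and the other IgG tumors were slightly above the untreated ones.

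**Figure D2:**
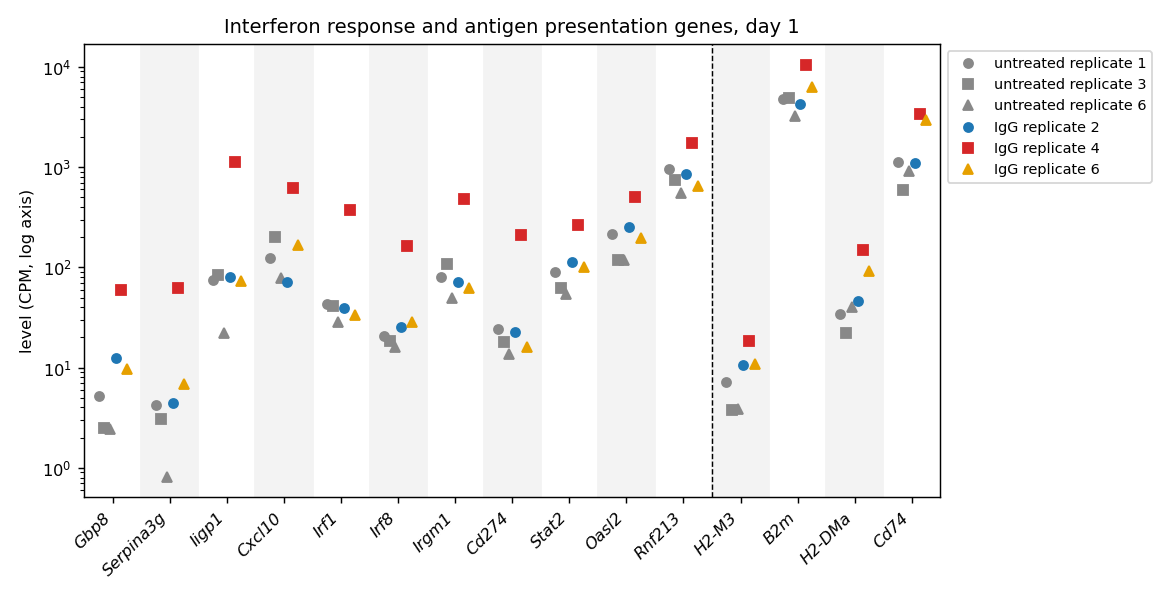
Level in CPM (log axis) of interferon response genes, left of the dashed line, and antigen presentation genes, right of it, in the 3 untreated tumors (gray) and the 3 IgG tumors (colored). IgG tumor 4 (red squares) is the highest for every gene shown, and for Iigp1, Irf1, Irgm1 and Cd274 the other IgG tumors lie among the untreated ones.

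Type I interferon-stimulated genes were likewise higher in 44 of 44 members tested, with a median log2 fold change of 0.69. Of the 44, 12 were higher at an unadjusted p under 0.05, against 4.01% of all genes. All IgG tumors were above all untreated tumors for 2 of the 44, against 6.26% of all genes tested. The antiviral signal transducer gene Stat2 was one of these, at 90.5, 61.9 and 54.2 CPM against 113, 265 and 101 CPM (1.21 ± 0.45, and 0.63 without IgG tumor 4). Oasl2, an oligoadenylate synthetase-like gene, overlapped at 216, 117 and 119 CPM against 255, 505 and 196 CPM. Without IgG tumor 4 the list's median was 0.17, and without it or without untreated tumor 6 none of the 44 had an unadjusted p under 0.05. Interferon regulatory genes differed among themselves. Irf7, the master regulator of interferon-α genes, was at 114, 26.2 and 41.7 CPM against 133, 141 and 65.2 CPM, with overlapping groups (0.90 ± 0.61, and 1.73 without untreated tumor 1). Irf3, the constitutive partner of Irf7, was level at 36.8, 28 and 33.1 CPM against 31.7, 36 and 32.1 CPM. Ifnb1, the interferon-β gene, had 0 counts in all 6 tumors.

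Antigen presentation genes were high in IgG tumor 4 and, for class II, in IgG tumor 6 as well. For MHC class I the median log2 fold change was 1.0, with 16 of 18 higher. Of the 18, 7 had all IgG tumors above all untreated tumors, against 6.26% of all genes tested. B2m, the common light chain of class I molecules, was at 4812, 4938 and 3202 CPM in untreated tumors and 4217, 10527 and 6355 CPM in IgG tumors, so that IgG tumor 2 lay among the untreated tumors (0.70 ± 0.34, and 0.29 without IgG tumor 4). H2-M3, a class I molecule that presents formylated peptides, was at 7.25, 3.75 and 3.85 CPM against 10.6, 18.6 and 10.8 CPM (1.43 ± 0.44), with no overlap. MHC class II genes were higher in 10 of 10 members, with a median of 1.31. Here 6 of the 10 had no overlap, against the same 6.26%. Cd74, the invariant chain, gave 1112, 591 and 922 CPM against 1105, 3387 and 2949 CPM (1.5 ± 0.54). H2-Ab1, a class II β chain gene, gave 239, 125 and 248 CPM against 262, 693 and 639 CPM (1.38 ± 0.55). For class II, IgG tumors 4 and 6 were both high and IgG tumor 2 was close to the highest untreated tumor. Without IgG tumor 4 the medians were 0.32 for class I and 0.94 for class II.

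T cell and cytotoxic lymphocyte genes were low in all tumors and, like the interferon genes, highest in IgG tumor 4. The T cell list was higher in 24 of 26 members with a median of 1.35. Its summed level was 68.3 to 115 CPM in untreated tumors and 77.2 to 209 CPM in IgG tumors. Such a sum is set mainly by the most abundant members, and which cells of the unsorted tissue expressed them was not tested. Cd3e, a chain of the T cell receptor complex, was at 2.26, 10.2 and 0.970 CPM against 4.01, 25.6 and 13.1 CPM, and Cd8a, the co-receptor of cytotoxic T cells, at 0.0270, 1.34 and 0.577 CPM against 0.874, 6.18 and 1.49 CPM. The groups overlapped for both. The cytotoxic lymphocyte list was higher in 25 of 26 members (median 1.21) with summed levels of 38.9 to 101 CPM and 80.4 to 254 CPM in the respective groups. Gzmb, which encodes granzyme B, was at 5.66, 1.34 and 1.07 CPM against 4.32, 36.8 and 6.42 CPM (2.56 ± 1.0), with IgG tumor 4 highest of the 30 tumors and a log2 fold change of 1.0 when it was left out. In these bulk tumors, more cells of a type and more RNA per cell cannot be told apart. The part of lymphocytes in the interferon result was not tested. Without IgG tumor 4 the medians were 0.82 for T cells and 0.70 for cytotoxic lymphocytes. Untreated tumor 6 was the lowest of the 30 tumors for the T cell list, with 6 of the 26 members at 0.

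Fc receptor and Fc receptor signaling genes were higher in all 3 IgG tumors at once. Of 29 members, 27 were higher, with a median log2 fold change of 0.77. An unadjusted p under 0.05 was reached by 7 higher members, against 4.01% of all genes. That count was 1 without untreated tumor 3, 3 without IgG tumor 4 and 4 with the replicate block. For 11 of the 29 the groups did not overlap, against 6.26% of all genes in that direction. The list's mean log2 CPM was 2.17, 1.70 and 1.46 in untreated tumors and 2.77, 2.55 and 2.34 in IgG tumors, which were the highest, the third and the fourth of the 30 WT tumors. Leaving out each tumor in turn kept the median between 0.67 and 0.99.

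Among the receptors themselves the evenness varied. Fcgr3, which encodes the activating low-affinity receptor FcγRIII, was at 37.4, 20.6 and 24.9 CPM in untreated tumors and at 62.9, 57.2 and 53.7 CPM in IgG tumors. The groups did not overlap and the IgG tumors were close together (1.07 ± 0.41). Fcgr4, the activating receptor FcγRIV, was instead carried by IgG tumor 4, at 19.5, 14.3 and 10.8 CPM against 23.4, 101 and 16.8 CPM (1.67 ± 0.60, and 0.43 without that tumor). The inhibitory Fcgr2b measured 60.4, 33.9 and 38.8 CPM against 88.3, 46.5 and 75.7 CPM (0.66 ± 0.38), and the high-affinity Fcgr1 19, 9.61 and 8.28 CPM against 20.3, 20.5 and 15.2 CPM (0.60 ± 0.52). Both overlapped through untreated tumor 1, the untreated tumor with the highest levels, and Fcgr1 stood at 1.06 without it and at 0.38 without untreated tumor 6. Fcer1g, the common γ chain, was at 60.6, 32.3 and 28.1 CPM against 63.6, 83.4 and 60.0 CPM (0.77 ± 0.41, and 1.19 without untreated tumor 1). Fcgrt, the neonatal receptor that recycles IgG, was at 72.0, 37.8 and 40.2 CPM against 96.3, 37.7 and 76.0 CPM (0.49 ± 0.37), with IgG tumor 4 at the untreated minimum and a log2 fold change of 0.19 without IgG tumor 2. Fcer1a, the IgE-binding chain found on mast cells and basophils, was at or near 0 in all 6 tumors. Downstream, Syk, Lyn, Btk and Lcp2 had all IgG tumors above all untreated tumors, with log2 fold changes of 1.02, 0.70, 1.0 and 1.09. These 4 genes were named after their values were seen, and only 11 of the list's 29 members had no overlap in that direction.

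Macrophage and monocyte markers differed in the same direction as the Fc receptors. Of 30 markers, 27 were higher, with a median of 0.63 (1.04 without untreated tumor 1). Their summed level ranged from 6587 to 7583 CPM in untreated tumors and from 7442 to 8929 CPM in IgG tumors. As for the T cell list, the most abundant members mainly set this sum, and which cells expressed them was not tested. Only untreated tumor 6 had a marker at 0, and it was 1 of the 30. Adgre1, which encodes F4/80, was at 35.4, 18.9 and 23.8 CPM against 62.7, 45.4 and 62.3 CPM (1.13 ± 0.41), with no overlap. The Fc list minus the macrophage list, in log2 units, was -2.83, -2.49 and -2.71 in untreated tumors and -2.70, -2.00 and -2.79 in IgG tumors, so the groups overlapped on this difference. The part of macrophage content in the Fc receptor result was not tested. Csf3r, a neutrophil receptor gene, was higher without overlap at 7.52, 4.66 and 4.82 CPM against 13.4, 10.8 and 16.8 CPM (1.27 ± 0.49), although the neutrophil list had only 13 of 24 members above the filter and a median of 0.93 that became -0.03 without IgG tumor 6. Complement genes were higher in 28 of 29 members with a median of 0.86, which was 0.46 without IgG tumor 6 and 0.57 without untreated tumor 3. C4b, a component of the classical pathway, overlapped by a narrow margin at 262, 109 and 118 CPM against 261, 399 and 355 CPM (1.05 ± 0.49). C3, the central component, overlapped more widely at 613, 117 and 263 CPM against 465, 366 and 974 CPM.

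**Figure D3:**
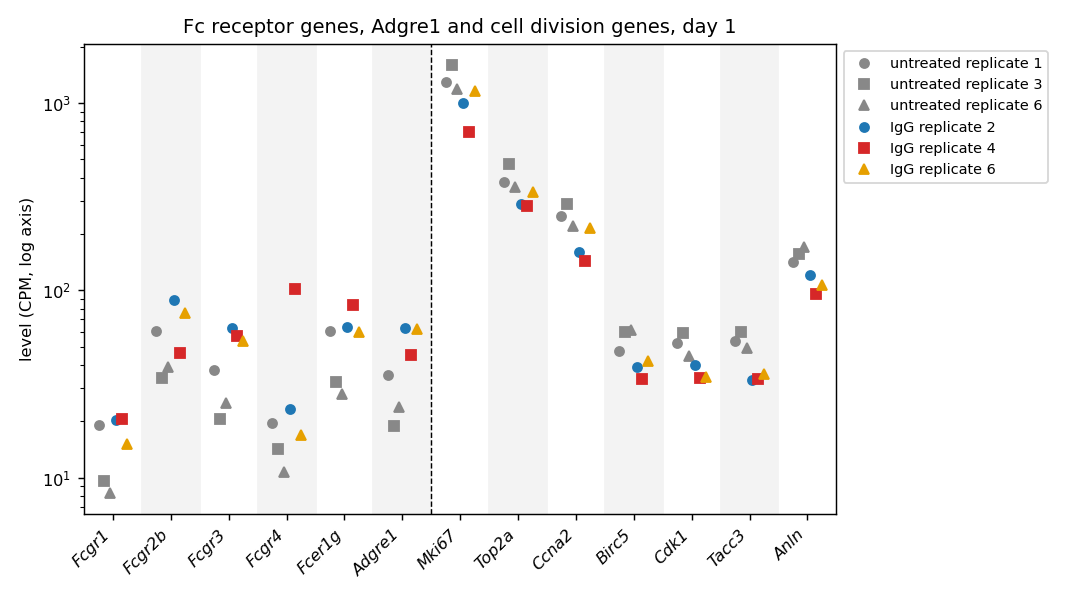
Level in CPM (log axis) of Fc receptor genes and the macrophage gene Adgre1, left of the dashed line, and of cell division genes, right of it, in each of the 6 tumors. For Fcgr3 and Adgre1 the 3 IgG tumors lie above all untreated tumors, and for every cell division gene shown they lie below.

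Cell division genes were lower in all 3 IgG tumors. The G2/M list, which holds genes of mitosis, was lower in 24 of 24 members with a median log2 fold change of -0.45. For 17 of the 24 all IgG tumors were below all untreated tumors, against 6.36% of all genes in that direction. An unadjusted p under 0.05 was reached by 7 of the 24, against 1.42% of all genes in that direction. That count was 2 without untreated tumor 3, 3 without IgG tumor 4 and 15 in limma voom. Its mean log2 CPM was 6.32, 6.57 and 6.28 in untreated tumors and 5.98, 5.79 and 6.07 in IgG tumors, and IgG tumor 4 was the lowest of the 30 tumors. The S phase list was lower in 27 of 27 members (median -0.34, and -0.21 without untreated tumor 3), with 12 of the 27 not overlapping. Leaving out each tumor in turn kept the G2/M median between -0.51 and -0.36.

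Mki67, the gene of the proliferation antigen Ki-67, was at 1293, 1590 and 1183 CPM in untreated tumors and 1003, 703 and 1164 CPM in IgG tumors. IgG tumor 6 was just below untreated tumor 6, and the log2 fold change was -0.50 ± 0.26 (-0.32 without IgG tumor 4). Top2a, which encodes topoisomerase IIα, gave 379, 474 and 354 CPM against 290, 281 and 336 CPM (-0.41 ± 0.22), and the cyclin gene Ccna2 248, 290 and 222 CPM against 161, 144 and 214 CPM (-0.55 ± 0.29). Rrm2, the ribonucleotide reductase subunit that supplies nucleotides in S phase, was at 257, 297 and 221 CPM against 162, 168 and 189 CPM (-0.58 ± 0.29). IgG tumor 6 was nearest to the untreated group in all 4 of these genes, and the groups did not overlap in any.

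The promoters of cell division genes are shown for the cell cycle genes homology region (CHR), the letters TTTGAA through which late cell cycle genes are repressed in resting cells. Cdk1 (chr10:69352913-69353162, minus strand) and Mki67 (chr7:135716380-135716629, minus strand) are given as the 250 bases before the RefSeq start in GRCm38.p6, on the gene's strand, with the letters on either strand in capitals.
Cdk1: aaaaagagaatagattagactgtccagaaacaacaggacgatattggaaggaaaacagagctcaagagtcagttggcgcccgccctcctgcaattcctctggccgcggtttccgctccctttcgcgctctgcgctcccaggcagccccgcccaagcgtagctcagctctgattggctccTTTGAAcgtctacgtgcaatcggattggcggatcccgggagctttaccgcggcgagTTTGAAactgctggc
Mki67: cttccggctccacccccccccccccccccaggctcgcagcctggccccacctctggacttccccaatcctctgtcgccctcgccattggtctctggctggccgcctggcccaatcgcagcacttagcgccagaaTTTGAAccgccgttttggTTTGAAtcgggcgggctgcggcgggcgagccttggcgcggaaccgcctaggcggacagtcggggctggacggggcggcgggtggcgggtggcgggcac
Of the 20 promoters found for 20 G2/M genes, 70% held the CHR letters between 250 bases before and 50 bases after the start, against 17.9% of all promoters and 20% of the 15 promoters of the melanocyte list. In the 250 bases before the start alone, the stretch printed here, the shares were 35%, 16% and 13.3%. None of the 20 held the GAS letters. Cdk1, the kinase that drives entry into mitosis, was at 52.5, 59.5 and 44.8 CPM in untreated tumors and 39.7, 33.9 and 34.3 CPM in IgG tumors (-0.54 ± 0.26), with no overlap. It was chosen here for its promoter, after its values were seen.

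Melanocyte lineage genes were lower by a smaller margin. Of 19 members 18 were lower, with a median of -0.25 (-0.42 without IgG tumor 4). The summed level of the list was 12419 to 17015 CPM in untreated tumors and 11004 to 13860 CPM in IgG tumors, which overlap, and no member was at 0. Dct, given above, had no overlap (-0.27 ± 0.19, and -0.16 without untreated tumor 3), whereas Tyrp1, another melanin enzyme gene, was at 4268, 5279 and 3492 CPM against 3683, 4531 and 3151 CPM. The G2/M level minus the melanocyte level was -0.95, -0.88 and -0.80 in untreated tumors and -1.13, -1.35 and -0.93 in IgG tumors. IgG tumor 6 was within the untreated range on this difference and the other IgG tumors were below it. The part of tumor cell content in the cell division result was not tested.

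**Figure D4:**
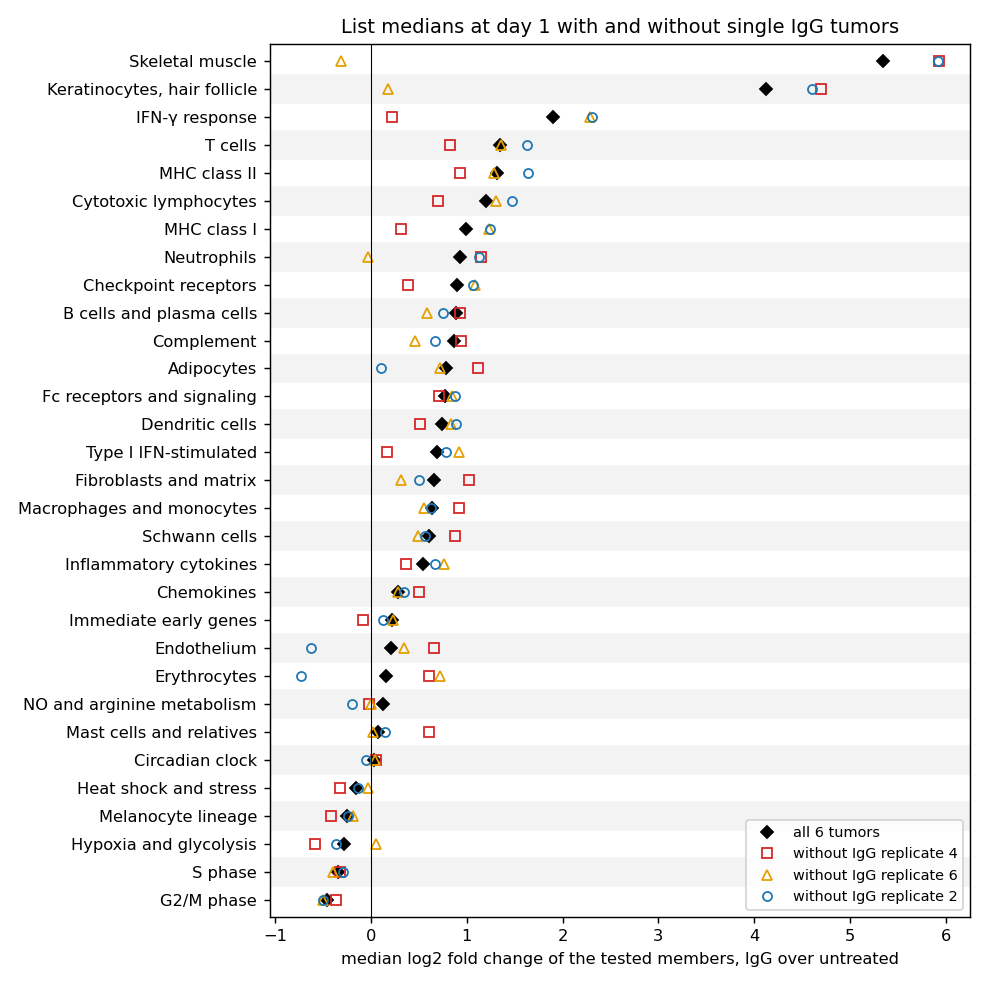
Median log2 fold change (IgG over untreated) of the tested members of 31 gene lists at day 1 with all 6 tumors (black) and with 1 IgG tumor left out (open marks). The muscle and keratinocyte medians come to -0.31 and 0.18 without IgG tumor 6, the IFN-γ median to 0.22 without IgG tumor 4, and the Fc receptor and G2/M medians stay near 0.77 and -0.45.

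The largest list medians belonged to tissues around the tumor and came from IgG tumor 6. Over the skeletal muscle list the median log2 fold change was 5.34, with 31 of 33 higher. Of the 33, 25 were higher at an unadjusted p under 0.05, against 4.01% of all genes. All IgG tumors were above all untreated tumors for only 2 of the 33, against 6.26% of all genes tested. The list's summed level was 112 to 205 CPM in untreated tumors and 106, 120 and 22654 CPM in IgG tumors 2, 4 and 6. Ttn, which encodes the giant sarcomere protein titin, was at 4.07, 45.2 and 9.86 CPM against 10.1, 6.57 and 10010 CPM. Myh1, a fast myosin heavy chain gene, was at 0.593, 4.24 and 0.498 CPM against 0.771, 0.170 and 3248 CPM. Without IgG tumor 6 the log2 fold changes were -1.25 and -1.91 and the list's median was -0.31. Keratinocyte and hair follicle genes had a median of 4.12, with 28 of 33 higher, and a summed level of 17.1 to 20.7 CPM in untreated tumors and 24.5, 20.9 and 1626 CPM in IgG tumors 2, 4 and 6. Krt10, a keratin of the outer epidermis, was at 2.16, 1.31 and 1.07 CPM against 1.47, 0.242 and 286 CPM. The median without IgG tumor 6 was 0.18. Muscle in IgG tumor 6 was the highest of the 30 tumors, and other WT tumors of the time course reached a mean log2 CPM of 6.05 against 6.43 there.

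Nos2, which encodes iNOS, was followed because the study compared mice with and without it. It was at 2.53, 4.07 and 0.734 CPM in untreated tumors and at 7.05, 41 and 1.72 CPM in IgG tumors. IgG tumor 4 was the highest of the 30 tumors, IgG tumor 6 lay within the untreated range, and the log2 fold change was 2.76 ± 0.89. Over the tumors left out in turn it ran from 0.84, without IgG tumor 4, to 3.34. Nos1, the neuronal isoform that muscle also expresses, was at 3.96, 5.55 and 3.70 CPM against 4.63, 4.07 and 54.6 CPM, high only in IgG tumor 6. Over the nitric oxide and arginine list 9 of 15 members were higher, with a median of 0.13 that ran from -0.19 to 0.29 over the tumors left out. Odc1, which opens polyamine synthesis from ornithine, was lower in every IgG tumor, at 235, 263 and 204 CPM against 148, 190 and 176 CPM (-0.45 ± 0.23).

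Checkpoint receptor genes were higher in 15 of 16 members, with a median of 0.90 and 3 of the 16 not overlapping, against 6.26% of all genes. Without IgG tumor 4 the checkpoint median was 0.39, with 13 of 16 higher. Entpd1, which encodes the ATP-hydrolyzing enzyme CD39, was the most even, at 25, 12.5 and 12.5 CPM against 35.4, 34.2 and 28.8 CPM (0.98 ± 0.30). Dendritic cell genes were higher in 16 of 18 members (median 0.74), inflammatory cytokine genes in 27 of 31 (0.55) and chemokine genes in 18 of 23 (0.29). Over the tumors left out the cytokine median ran from 0.29 to 0.99 and the chemokine median from 0.26 to 0.68. Among chemokines Cxcl16, which encodes the ligand of CXCR6, had no overlap, at 9.11, 9.78 and 6.03 CPM against 11.4, 24.7 and 18.5 CPM (1.13 ± 0.51). B cell genes were higher in 18 of 23 members (0.89, and 0.56 without untreated tumor 6), with IgG tumor 2 the highest and IgG tumor 4 the lowest of the IgG tumors, and mast cell, basophil and eosinophil genes in 9 of 15 (0.08). Stromal lists were mixed. Fibroblast and matrix genes were higher in 25 of 28 members (0.66, and 0.32 without IgG tumor 6), but Col1a1, the collagen I chain gene, was at 2910, 1281 and 1951 CPM against 4379, 1449 and 4358 CPM, with IgG tumor 4 inside the untreated range. Endothelial genes had a median of 0.21 that became -0.62 without IgG tumor 2. Adipocyte genes had a median of 0.79, with 20 of 23 higher, and 0.10 without the same tumor, with 14 of 23 higher. Schwann cell genes had a median of 0.61, which ran from 0.49 to 1.01 over the tumors left out. The 8 erythrocyte genes tested had a median of 0.15, which ran from -0.72, without IgG tumor 2, to 1.5, without untreated tumor 3.

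Stress and clock genes differed little. Immediate early genes had a median of 0.22, with 17 of 28 higher, that became -0.077 without IgG tumor 4, and heat shock genes one of -0.16, with 14 of 22 lower, that became -0.032 without IgG tumor 6. Zfp36, which encodes the mRNA-decay factor tristetraprolin, was higher without overlap, at 52.0, 37.6 and 43 CPM against 75.4, 115 and 63.2 CPM (0.93 ± 0.33). Nr1d1, the clock repressor REV-ERBα, was also higher without overlap, at 37.2, 26.8 and 42.3 CPM against 59.8, 50.1 and 137 CPM (1.22 ± 0.40, and 0.63 without IgG tumor 6), in a clock list whose median was 0.04. Hypoxia and glycolysis genes were lower in 24 of 27 members (-0.27), and this came from IgG tumor 6, whose list level of 6.27 was the lowest of the 30 tumors. The glycolytic gene Pgk1 was at 833, 592 and 752 CPM against 599, 756 and 300 CPM. Without IgG tumor 6 the hypoxia median was 0.06.

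The IgG effect at day 1 was set beside those at 6 hours and day 3, each measured in 3 IgG and 3 untreated tumors of its own. edgeR called 0 genes at 6 hours, where unadjusted p-values under 0.05 were found for 948 higher and 508 lower genes, and 0 at day 3, where the counts were 366 and 343. The difference between the effects also gave 0 genes against either time. At an unadjusted p under 0.05 the day 1 effect was above the 6-hour effect for 493 genes (1.84%) and below it for 578 (2.15%), and above the day 3 effect for 698 (2.6%) and below it for 189 (0.704%). Among the genes with the smallest p in these tests, Mstn and H19 were high at day 1 in IgG tumor 6, at 22.3 and 347 CPM.

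**Figure D5:**
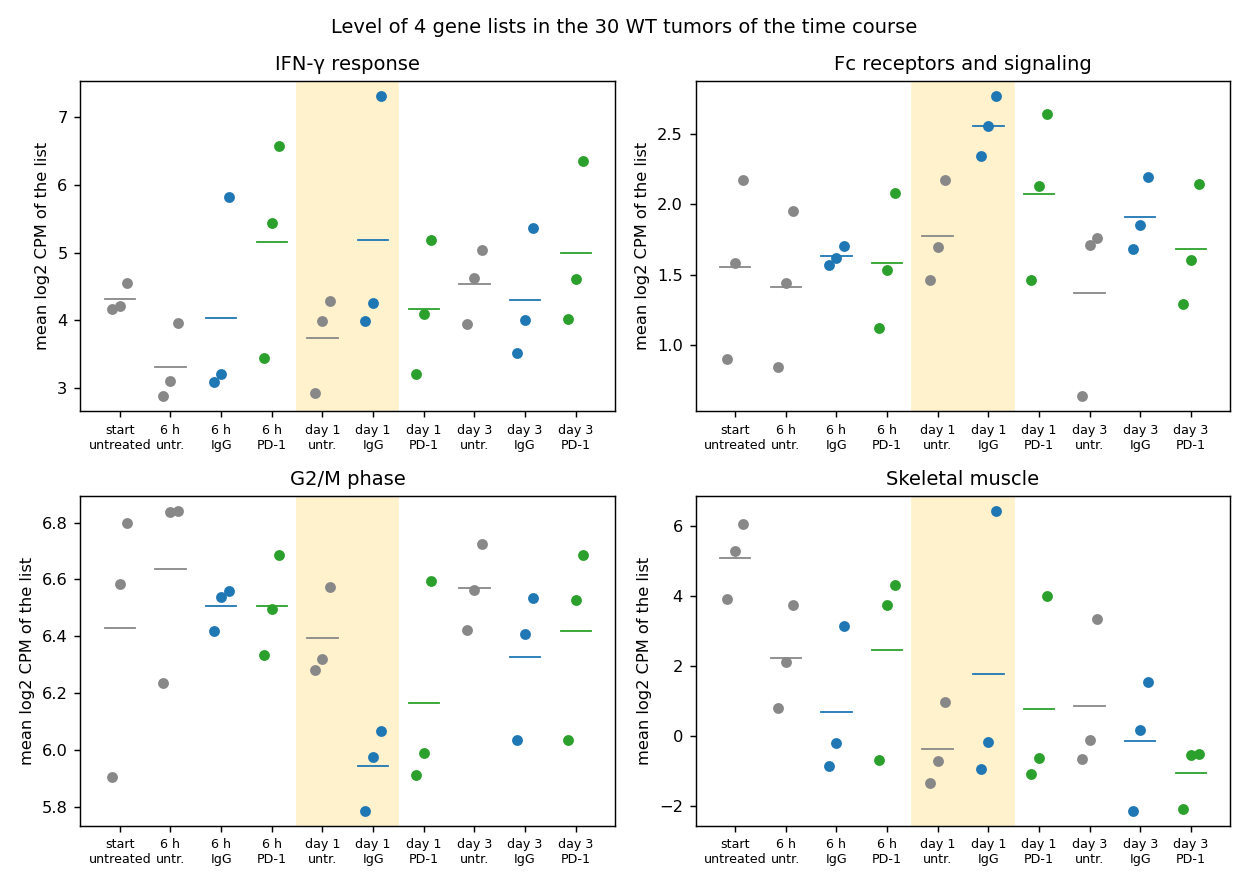
Mean log2 CPM of 4 gene lists in each of the 30 WT tumors by time and treatment (start, 6 h, day 1, day 3; untreated gray, IgG blue, anti-PD-1 green; bars are means of 3 tumors), with the day 1 IgG and untreated groups shaded. At day 1 the IgG tumors reach 2.34 to 2.77 on the Fc receptor list against 1.46 to 2.17 untreated, and 1 IgG tumor stands apart on the IFN-γ list (7.31) and another on the muscle list (6.43).

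List by list, the IFN-γ response had medians of 1.12 at 6 hours, 1.90 at day 1 and -0.12 at day 3. At 6 hours 32 of the 33 members were higher, and 0 had all IgG tumors above all untreated tumors, against 5.87% of all genes. Fc receptor genes had medians of 0.27, 0.77 and 0.69, with 1, 11 and 14 of the 29 members having all IgG tumors above all untreated tumors, against 5.87%, 6.26% and 6.53% of all genes at those times. MHC class II genes had medians of -0.07, 1.31 and 0.49, and G2/M genes of -0.13, -0.45 and -0.23. Muscle genes had medians of -1.44, 5.34 and -1.55 with all tumors, and of -0.31 at day 1 once IgG tumor 6 was left out. No tumor was left out for the values at 6 hours and day 3, where the groups overlapped on the list's level. At both of these times 0 members were lower at an unadjusted p under 0.05, and 2 and 0 were higher. The difference between times was not tested on the list. Among the lower genes named above for their small p-values, only Cep126 and Birc5 had all IgG tumors below all untreated tumors at 6 hours, day 1 and day 3. Their log2 fold changes were -0.43, -0.84 and -0.27 for Cep126 and -0.32, -0.56 and -0.12 for Birc5. The share of all genes with the IgG tumors entirely below was 2.31%, 6.36% and 4.67% at those times. For the other lower genes of that set the groups overlapped at 6 hours. There Anln stood at 0.02, Sox11 at 0.005 and Gh at 0.12, and the rest had negative log2 fold changes.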

How the data were processed

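Bulk RNA-seq libraries of 30 WT tumors, 3 in each of 10 groups, entered 1 fit, and 6 of them are compared here. The authors deposited a table of whole-number counts per gene. Per the labels, reads were trimmed with cutadapt 1.8.1, aligned to mm10 with STAR 2.7.7a and processed with RSEM 1.3.0 from strand-specific libraries. The 55450 gene identifiers matched GENCODE vM21, which gave the coordinates.

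Counts were tested with edgeR 4.0.16 in R 4.3.3 (TMM, filterByExpr with a minimum count of 10, quasi-likelihood test, 20 residual degrees of freedom, common coefficient of variation 0.671), with Benjamini-Hochberg adjusted p under 0.05 as the threshold. DESeq2 1.42.0 and limma 3.58.1 were alternatives. CPM were computed on TMM-scaled library sizes, without correction for gene length. List levels used log2 CPM with a prior count of 0.5.

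Named genes were the 15 with the smallest p in each direction of the day 1 comparison (mean of at least 1 CPM in a group), 9 genes of the study, 3 members of each list by level and 1 by p, the Fc receptor genes, and the 5 per direction of each difference between times. Some of these genes are not reported here. Members, lists and tests were chosen with earlier results of these data known.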

Additional observations from a re-analysis of the deposited data

Results flagged for a closer look

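Gh, the growth hormone gene, was set apart because its groups separated in opposite directions at day 1 and day 3. At day 1 it was at 2.48, 1.54 and 2.20 CPM in untreated tumors and 0.463, 0.557 and 0.334 CPM in IgG tumors, with a log2 fold change of -2.19 ± 0.54 (SE). At day 3 it was at 0.676, 1.02 and 0.442 CPM in untreated tumors and 1.38, 1.67 and 1.37 CPM in IgG tumors, with a log2 fold change of 1.05 ± 0.52. The difference between both effects was -3.24 ± 0.75 and did not pass edgeR's test over all genes (Benjamini-Hochberg adjusted p = 1.0).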

How the results depend on the processing

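The count of called genes at day 1 was 0 with DESeq2 size factors, a filter at a mean of 1 CPM, limma voom with quality weights, the level of olfactory, vomeronasal and taste receptor genes as a covariate or only these groups in the fit. It was 206 with no filter and 25 with the DESeq2 Wald test. Added after the data were seen, no filter gave 304 without IgG tumor 6 and 769 without IgG tumor 4, and DESeq2 gave 1 without IgG tumor 6. Leaving out each tumor gave 0 to 0 at day 1 and day 3 and for both differences, and 0 to 1 at 6 hours. DESeq2 called 10 genes at 6 hours, 15 at day 3, and 8 and 15 for the differences of day 1 from 6 hours and from day 3, where no filter called 60 and 75. The replicate block gave 0 called genes in all 5 comparisons, and at day 1 unadjusted p-values under 0.05 in 733 higher and 627 lower genes. Replicate numbers did not pair the tumors: deviations of same-numbered tumors had a median correlation of -0.01 over 65 pairs, and the day 1 groups share only number 6. Of 76 named genes 68 kept their direction in all 17 alternatives. Over the tumors left out, log2 fold changes ran from -0.061 to 2.45 for Irf1, -0.25 to 1.79 for Irgm1, -0.17 to 1.56 for Cxcl10, -0.073 to 0.12 for Irf3, -1.25 to 8.91 for Ttn, -1.91 to 10.95 for Myh1, -0.83 to 6.57 for Krt10 and -0.017 to 2.75 for Nos1. With no filter and without IgG tumor 4, Irf1, Irgm1, Cxcl10 and Irf3 stood at -0.062, -0.24, -0.16 and -0.041, and limma voom gave Irf3 -0.013. Without IgG tumor 6, Ttn, Myh1 and Krt10 stood at -1.20, -1.86 and -0.79 with no filter and at -1.23, -1.88 and -0.79 with DESeq2, where Nos1 was at -0.0022. For the gene lists, limma voom with quality weights gave medians of 1.04 for IFN-γ, 1.45 for muscle and 1.49 for keratinocyte genes, with 2, 0 and 0 of 33 members at an unadjusted p under 0.05, and with the replicate block 15, 4 and 8 members were higher at that p. Genes under about 3 counts per tumor, or 0.0727 to 0.0853 CPM, could not be compared at this depth. The spread within groups (coefficient of variation 0.671) limits what 3 against 3 can show.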

Other observations

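IgG tumor 2 had neither the interferon nor the muscle pattern and was the highest of the 30 WT tumors on other lists. Besides the Fc receptor list, these were endothelium (mean log2 CPM 5.02), chemokines, B cells and plasma cells, and the mast cell, basophil and eosinophil list. On the endothelial list IgG tumor 4 was at 2.42 and IgG tumor 6 at 4.03, and untreated tumors 1, 3 and 6 were at 4.38, 4.31 and 2.32. The groups overlapped. IgG tumor 2 also had the most genes detected of the 30 (33437), and olfactory, vomeronasal and taste receptor genes at 275 CPM. Untreated tumor 6 had 22186 and 58.7 CPM. With that receptor level as a covariate, medians were 0.03 for endothelium, 0.20 for chemokines and 0.67 for B cells, against 0.21, 0.29 and 0.89. For the Fc receptor and mast cell lists they were 0.78 and 0.14, against 0.77 and 0.08. The part of that level in the ranks was not tested.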
